A study of Mus musculus with 4 samples.

Results

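Open chromatin was measured by ATAC-seq in mouse fetal liver cells at embryonic day 14.5, and 500 regions that ranked lower in both Hemgn knockout (KO) libraries than in both wild-type (WT) libraries are described here. They were chosen by the measured values themselves. Peaks of the 4 deposited lists on chromosomes 1 to 19 were merged into 54244 regions wherever they shared at least 1 bp, and 26855 regions had a peak in all 4 libraries. Each region took, in each library, the highest percentile of the authors' fold enrichment within that library's list. The 500 members, 1.86% of the shared regions, had the largest gap between the lower WT percentile and the higher KO percentile. The WT and KO values of the members, and every measure taken from the same peaks, are therefore descriptions with no test.

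The study had 4 libraries: WT replicates 1 and 2, and Hemgn KO replicates 1 and 2. WT livers served as the control, and no other allele, treatment or age was labelled. The kind of KO allele, the strain, and whether replicates came from separate embryos were not given in the labels, so the spread between replicates may be technical. Whole fetal liver holds several cell types. In such bulk material, fewer cells of a type and less open chromatin per cell cannot be told apart.

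Red cells are made mostly in the liver at this stage of development, where erythroid cells lie beside hepatoblasts, macrophages, granulocytes and stem cells. The product of Hemgn, hemogen, is found in the nucleus of blood cell precursors. The series title pairs it with BRG1, the ATPase of the BAF complex, which uses ATP to move nucleosomes and so opens promoters and enhancers to transcription factors. In ATAC-seq a transposase inserts adapters into DNA that nucleosomes do not cover, so that a peak marks an open region. The question of the comparison is which open regions differ between the genotypes.

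On these chromosomes WT 1 had 46905 peaks, WT 2 had 33428, KO 1 had 34703 and KO 2 had 42176. Their most frequent peak background, a stand-in for depth, was 5.67, 2.29, 2.49 and 3.8 fragments in the same order. WT replicate 1 and KO replicate 2 were thus the deeper libraries, and WT replicate 2 and KO replicate 1 the shallower ones. Shared regions held 58.4% and 64.6% of the peaks of the deeper libraries, and 82.3% and 78.8% of those of the shallower ones. A shared region therefore tended to stand higher in a long list than in a short one, and the median percentile of all shared regions was 70.6, 59.2, 60.8 and 67.5 in WT 1, WT 2, KO 1 and KO 2.

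Few members lay at gene starts, so sequence could be shown only for those that did. The windows below, from 250 bases before to 50 after an annotated start, come from RefSeq (GRCm38.p6) and are written 5′ to 3′ on the gene's strand. Of the 26091 shared regions on chromosomes other than 18, 10207 touched such a window, and 38 of 486 members did. The first 4 windows are those of the members at gene boundaries with the largest gap whose window lay wholly inside the region. The last 2 were chosen after the data were seen, for the 7-base core motif common to NF-E2 and AP-1 sites. Capitals mark any of 7 motifs searched on both strands: AGATAA for erythroid GATA proteins, CCACCC for Krüppel-like factors, CAGCTG for the E-box, TGANTCA for NF-E2 and AP-1, GGAAGT for ETS proteins, TTGCNNAA for C/EBP proteins and CCAAT for NF-Y.
Ppp1r14b, encoding an inhibitor of protein phosphatase 1, chr19:6974798-6975097, plus strand: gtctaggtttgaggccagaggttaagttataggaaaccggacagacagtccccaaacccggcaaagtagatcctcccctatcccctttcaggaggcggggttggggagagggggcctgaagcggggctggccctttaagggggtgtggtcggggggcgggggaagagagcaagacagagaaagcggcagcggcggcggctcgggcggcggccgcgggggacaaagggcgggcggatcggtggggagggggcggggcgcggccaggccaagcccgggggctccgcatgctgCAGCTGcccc
Bpi, encoding a bactericidal protein of neutrophil granules, chr2:158257991-158258290, plus strand: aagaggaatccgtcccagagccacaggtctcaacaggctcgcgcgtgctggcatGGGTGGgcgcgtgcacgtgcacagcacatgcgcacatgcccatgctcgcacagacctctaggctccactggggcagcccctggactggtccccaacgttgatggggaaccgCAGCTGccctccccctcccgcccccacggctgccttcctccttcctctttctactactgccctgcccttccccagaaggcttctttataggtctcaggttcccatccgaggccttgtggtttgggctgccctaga
Cyp4f16, encoding a cytochrome P450, chr17:32536307-32536606, plus strand: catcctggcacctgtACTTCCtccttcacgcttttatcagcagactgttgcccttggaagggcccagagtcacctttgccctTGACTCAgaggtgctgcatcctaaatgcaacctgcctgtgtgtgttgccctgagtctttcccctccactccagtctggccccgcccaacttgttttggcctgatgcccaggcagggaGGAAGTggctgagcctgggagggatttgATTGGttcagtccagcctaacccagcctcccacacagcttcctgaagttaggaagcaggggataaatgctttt
Lpgat1, encoding a lysophospholipid acyltransferase, chr1:191717774-191718073, plus strand: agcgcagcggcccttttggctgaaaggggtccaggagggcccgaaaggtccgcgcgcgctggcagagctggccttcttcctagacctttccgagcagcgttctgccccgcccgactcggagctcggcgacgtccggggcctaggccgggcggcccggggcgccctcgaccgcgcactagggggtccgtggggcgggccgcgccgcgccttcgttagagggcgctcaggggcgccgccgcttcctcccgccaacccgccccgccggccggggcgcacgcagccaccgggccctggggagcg
Adgrg1, encoding an adhesion receptor, chr8:94984149-94984448, plus strand: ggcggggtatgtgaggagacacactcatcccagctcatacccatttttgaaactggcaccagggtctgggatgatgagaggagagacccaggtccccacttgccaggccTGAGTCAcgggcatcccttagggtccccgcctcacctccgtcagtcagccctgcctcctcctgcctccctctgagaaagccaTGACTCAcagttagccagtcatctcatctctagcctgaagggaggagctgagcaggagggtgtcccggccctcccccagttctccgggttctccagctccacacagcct
Gatad2a, encoding a subunit of the NuRD repressor complex, chr8:69974334-69974633, minus strand: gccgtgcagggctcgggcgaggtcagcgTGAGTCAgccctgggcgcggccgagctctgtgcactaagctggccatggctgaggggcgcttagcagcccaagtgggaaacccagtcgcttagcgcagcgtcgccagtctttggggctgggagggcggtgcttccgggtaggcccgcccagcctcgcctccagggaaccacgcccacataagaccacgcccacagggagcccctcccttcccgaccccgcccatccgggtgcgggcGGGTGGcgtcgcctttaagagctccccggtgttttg

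The Ppp1r14b window lay in a region with WT percentiles of 56.8 and 46.2, and KO percentiles of 26.3 and 29.8. The region at the Bpi start had 57.7 and 61.7 in WT, with 40.6 and 42.1 in KO. The region at the Cyp4f16 start had 42.8 and 45.0 in WT, with 23.8 and 28.4 in KO. These 3 regions stood in the middle of the WT lists and lower in both KO lists. The Lpgat1 region was among the high peaks of every library, with 91.0 and 89.8 in WT, and 76.0 and 74.3 in KO. Its window, with 43 CpG dinucleotides and 77.0% G and C, held none of the 7 motifs. The Adgrg1 window, which held TGANTCA at 2 places, lay in a region with 55.4 and 47.6 in WT, and 26.2 and 38.1 in KO. The Gatad2a window held it at 1 place, in a region with 93.5 and 95.2 in WT, and 79.3 and 84.2 in KO.

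Across the 500 members, the median percentile was 56.0 in WT 1 and 49.2 in WT 2, against 26.2 in KO 1 and 33.8 in KO 2. The interquartile ranges were 46.2 to 67.2 and 38.7 to 62.0 in WT, and 14.6 to 40.5 and 19.9 to 45.5 in KO. The gap ran from 8.48 to 48.0 percentile points with a median of 11.6, and it passed 20 points in 42 members. In all 500 members both WT percentiles were above both KO percentiles, as the rule requires, beside 3680 of all 26855 shared regions (13.7%). The mean percentile over the 4 libraries had an interquartile range of 31.1 to 52.4 among members. Above percentile 75 in both WT libraries were 32 members, and 153 were under percentile 50 in all 4 libraries. In the lowest 25% of both KO lists were 137. The same counts were not taken over all shared regions, so nothing is read from them. The median over the 4 libraries' mean percentile was 40.7 for members and 63.6 for all shared regions.

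**Figure D1:**
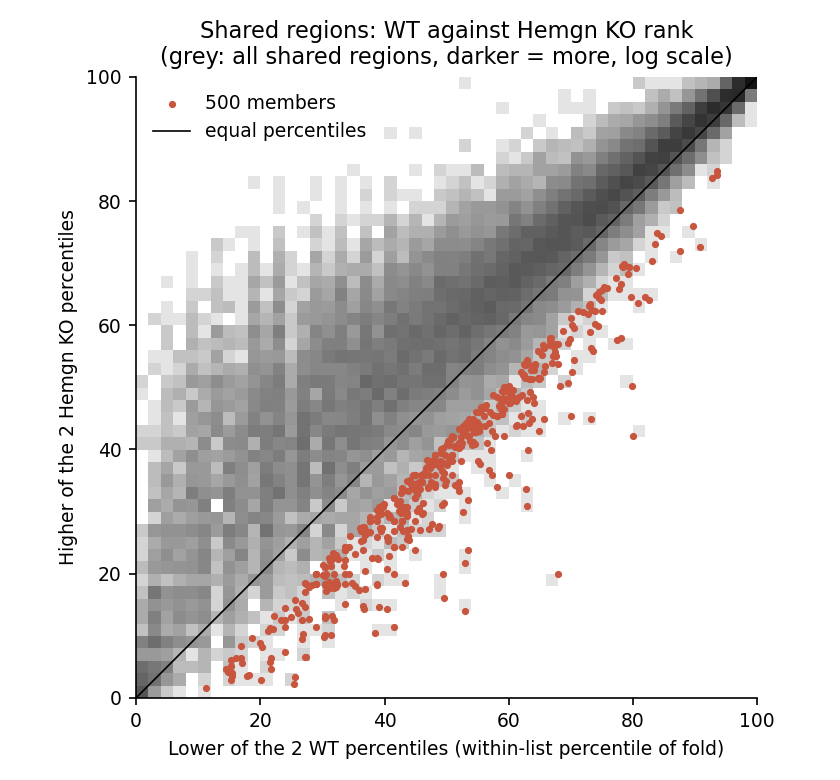
Lower of the 2 WT percentiles (x axis) against the higher of the 2 Hemgn KO percentiles (y axis) for the 26855 shared regions, as a grey density on a log scale, with the 500 members as red points and the line of equal percentiles in black. The members form a band below the line, from a gap of 8.48 to a gap of 48.0 percentile points.

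The largest gap of any member was at a region 13.4 kb from Bex6 and outside genes (chr16:32200111-32201038), with percentiles of 73.2 and 67.9 in WT and 18.3 and 19.9 in KO. Both WT libraries put it in the upper part of their lists and both KO libraries in the lowest 25%. A region inside Crtc1, which encodes a coactivator of CREB, had 54.2 and 53.0 in WT and 14.0 and 12.5 in KO (chr8:70422563-70423090). A region 8.76 kb from the chemokine gene Ccl17 had 83.1 and 80.0 in WT, and 12.5 and 42.1 in KO (chr8:94800236-94801162). The KO libraries differed from each other by more at Ccl17 than at Bex6 or Crtc1, and both stayed under the WT libraries at all 3.

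Outside genes, the third largest gap was at a region 2.13 kb from Cebpe, which encodes C/EBP epsilon, a factor of granulocyte maturation (chr14:54714036-54715170). It had 73.1 and 63.0 in WT, with 8.82 and 30.8 in KO. A region by Gm536 had 68.5 and 53.0 in WT and 21.7 and 21.0 in KO. A region by Enho, the gene of the peptide adropin, had 64.3 and 53.5 in WT and 23.8 and 19.9 in KO. Gaps over 24 points outside genes were also found by 4 other genes: Cby3 (29.2), Nfatc4, an NFAT transcription factor (28.3), Nodal, a ligand of the TGF-beta family (24.8), and Atp5g3, a subunit of ATP synthase (24.2). The nearest gene names a place and does not show that the region acts on that gene.

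Inside genes, the region in Tspan14, a tetraspanin gene, had 53.9 and 49.6 in WT and 16.1 and 3.73 in KO (chr14:40935266-40936325). The region in Fbxl13, an F-box gene, had 59.2 and 41.6 in WT and 7.44 and 11.3 in KO (chr5:21616096-21617048). The region in Fkbp5, a co-chaperone of the glucocorticoid receptor, had 49.5 and 57.3 in WT and 18.3 and 19.9 in KO. The shallower WT library was the higher one at Fkbp5, while WT 1 was above WT 2 in 395 members and in 90.2% of shared regions. Gaps over 24 points inside genes were also found in Notch2, a receptor gene (28.0), Gm36210 (26.1), the potassium channel gene Kcnq1 (24.6) and the myosin gene Myo18a (24.5). Equal KO values at different regions, such as 18.3 and 19.9 at Bex6 and Fkbp5, are steps of the scale, because few fragments over the library background allow few fold values.

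At gene boundaries, meaning up to 1 kb from a gene's start or end, the largest gap was by Tmed6, whose product belongs to a family of cargo proteins of the early secretory pathway (chr8:107065897-107066585). It had 83.7 and 79.9 in WT, with 45.4 and 50.1 in KO. The region by Rnf17, a germ cell gene, had 60.2 and 58.1 in WT and 33.9 and 28.4 in KO. The region by Snx1, a sorting nexin gene, had 67.1 and 63.1 in WT, with 39.8 and 37.7 in KO. At these 3 boundaries the replicates of a genotype lay within 6 points of each other, and the gaps were 29.8, 24.1 and 23.2 points.

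**Figure D2:**
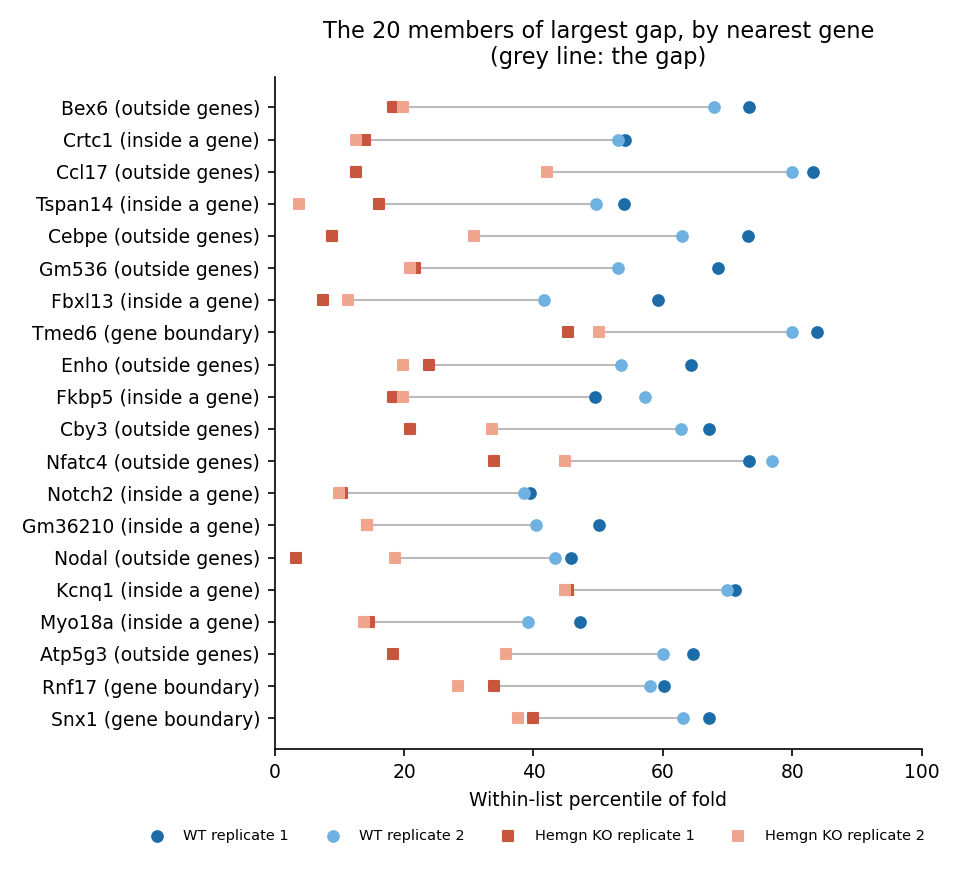
Within-list percentile of fold (x axis) in each of the 4 libraries for the 20 members of largest gap, named by nearest gene with their place. Blue circles are WT and red squares Hemgn KO, and the grey line between the nearest WT and KO points is the gap, which ran from 48.0 at Bex6 to 23.2 at Snx1.

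Fold and −log10 p of a peak together give its number of fragments at the summit, which was divided by the library's background to set libraries side by side. By this measure the Ccl17 region had 218 and 77 summit fragments in WT and 11 and 22 in KO. With exact Poisson 95% intervals of 190 to 249, 60.8 to 96.2, 5.49 to 19.7 and 13.8 to 33.3 fragments, these were 38.4, 33.6, 4.42 and 5.79 times the background. The KO mean was 7.06-fold lower than the WT mean, the largest such difference among members. This separation follows from the choice of the region by its fold and is given as a size only. The Cebpe region had 126 and 54 fragments in WT and 16 and 31 in KO, or 22.2, 23.6, 6.43 and 8.16 times the background, 3.14-fold lower in KO. Bex6 had 61 and 31 fragments in WT and 12 and 16 in KO, and was 2.69-fold lower. Intervals cover counting error only, since each comes from a single count and holds no variation between libraries. Duplicate reads, if they were kept, are not molecules counted once.

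Over the 497 members with a value in both genotypes, the median KO over WT ratio of these background-scaled fragments was 0.704, with an interquartile range of 0.617 to 0.785, and 0.992 (0.851 to 1.14) over 22507 shared regions. The ratio was under 0.5 in 32 members, beside 0.311% of those shared regions. Of these, the smallest ratios after Ccl17 were by Asb3 (0.252, without WT 1, whose fragments could not be solved), Cebpe (0.318), Lzts1 (0.337) and Wdhd1 (0.350). Asb3, Lzts1 and Wdhd1 are named for these ratios, after the values were seen. The local background around members did not follow: its median KO over WT ratio was 0.999, beside 1.01 in shared regions. Ranked by −log10 q, both WT were above both KO in 458 members, against 8.54% of shared regions. By background-scaled fragments they were in 385 of 494 members, against 25.8% of the 18778 shared regions with a value in all 4 libraries. Peaks were wider in both WT than in both KO in 172 members, against 13.7% of shared regions. These measures come from the same peaks as the rule, so nothing is read from their counts. A −log10 q of at least 5 in all 4 libraries was reached by 310 members (62.0%) and by 86.0% of shared regions.

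The same rule was applied to the other 2 ways of pairing the 4 libraries, without regard to genotype. Both WT percentiles were above both KO percentiles in 13.7% of shared regions, and the reverse held in 2666 (9.93%). WT 1 and KO 1 were above WT 2 and KO 2 in 3864 regions (14.4%), and below them in 983 (3.66%). The deeper pair, WT 1 and KO 2, was above the shallower pair in 15254 regions (56.8%), and below it in 407 (1.52%). The share with WT above KO was thus close to one direction of the replicate-number pairing, and far under that of the deeper pair. The 500 largest gaps had a median of 11.6 points for WT above KO, 10.5 for KO above WT, 11.5 for WT 1 and KO 1 above the others, and 24.0 for the deeper pair. Gaps over 30 points were found in 7 regions for WT above KO, 6 for KO above WT, 3 for WT 1 and KO 1, and 76 for the deeper pair. The largest single gap was 48.0 points for WT above KO (Bex6) and 47.1 points for the deeper pair.

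The order of the pairings changed with the length of the lists. With all lists shortened to the number of peaks of the shortest by fold, both directions together gave 9582 regions by genotype, 8431 by depth and 6403 by replicate number. The most frequent single direction was then the shallower pair above the deeper one, with 5125 regions against 3306 for the reverse, followed by WT above KO with 4933 and KO above WT with 4649. With the lists as deposited the same counts were 6346, 15661 and 4847. Of the 500 members, 195 were chosen again with lists of equal length, and 218 with percentiles taken among the peaks of shared regions alone. Membership of a single region therefore depended on how percentiles were taken.

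**Figure D3:**
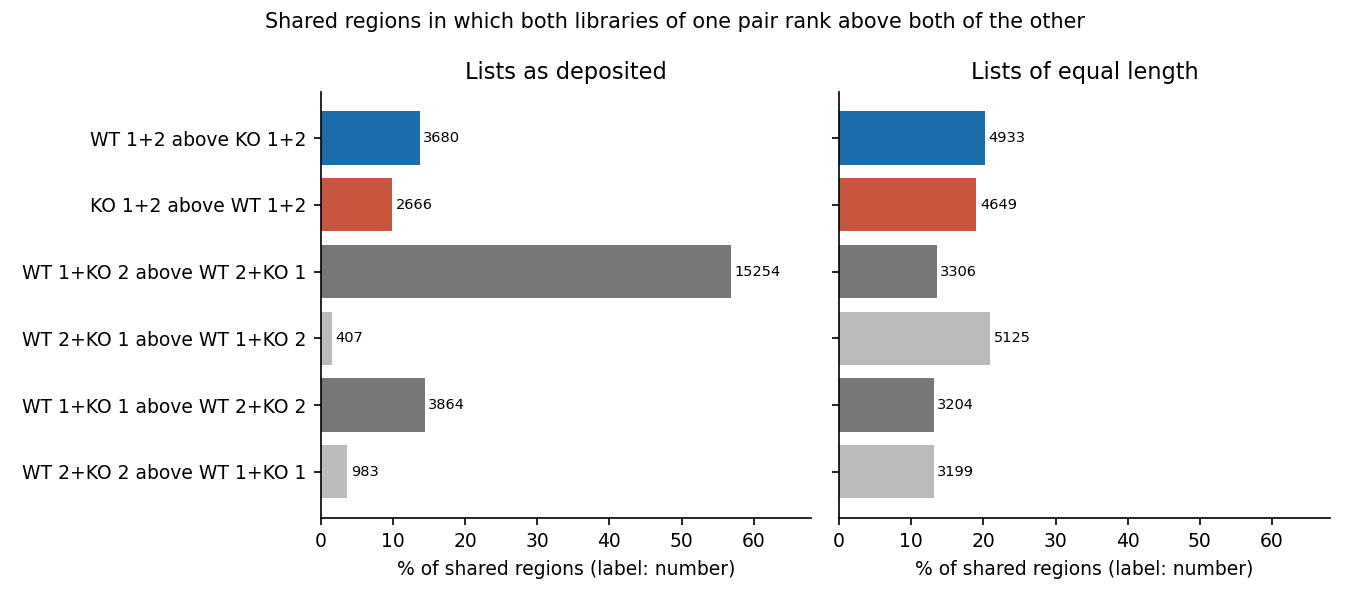
Share of shared regions (x axis, percent; numbers at the bars) in which both libraries of a pair ranked above both of the other pair, for the 3 pairings in both directions, with lists as deposited (left, 26855 shared regions) and of equal length (right, 24436). Left, the deeper pair stands out with 15254 regions; right, the depth direction is reversed, with 5125 regions for WT 2 and KO 1 above and 3306 below, beside 4933 for WT above KO and 4649 for KO above WT.

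A reading that the choice of regions did not use was had by choosing 500 shared regions in 1 WT and 1 KO library and taking the difference in the other 2. Chosen in WT 1 and KO 2, the regions had a median difference of 3.24 percentile points in WT 2 minus KO 1, against −0.571 over all shared regions. Chosen in WT 2 and KO 1, they had 9.06 in WT 1 minus KO 2, against 2.16. Chosen in WT 2 and KO 2, they had 15.1 in WT 1 minus KO 1, against 6.46. Chosen in WT 1 and KO 1, they had −6.50 in WT 2 minus KO 2, against −4.83, so that there the raw median was lower. Because differences between libraries change with level, each difference was also taken over the median of shared regions in the same 5-point bin of mean percentile. The medians were then 4.26, 4.63, 0.792 and 3.17 points in the same order, all above 0. For the replicate-number pairing the 4 values were between −6.54 and −2.70, and for the depth pairing between −6.33 and 3.10. For the choice in WT 2 and KO 2, 51.6% of the regions lay above the median of their level. The 12 values share the same 4 libraries, and some are mirror images of each other, so they are given without a test. Of the 500 regions of each genotype choice, 77 to 249 were also members, so the values describe mostly other regions.

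**Figure D4:**
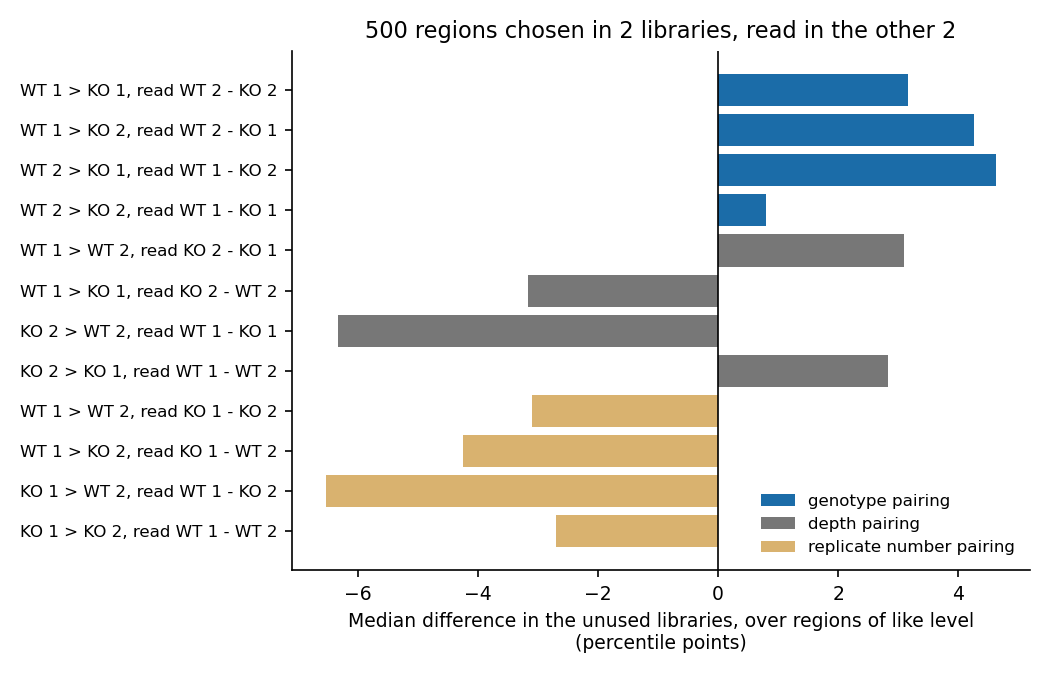
Median difference, in percentile points over shared regions of the same level (x axis), in the 2 libraries that were not used to choose 500 regions, for each of the 12 choices (y axis, the libraries that chose, then those read). The 4 genotype choices lie between 0.792 and 4.63, the 4 by replicate number are all below 0, and those by depth fall on both sides. All 12 values come from the same 4 libraries and some are mirror images of others, so they are not separate outcomes.

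Most members lay away from gene ends. Of the 500, 58 (11.6%, exact binomial 95% interval 8.93 to 14.7) were within 1 kb of a gene boundary, 273 (54.6%, 50.1 to 59.0) were inside genes and 169 (33.8%) were outside genes. These intervals cover counting error only, as if regions were independent. Some settings gave boundary shares outside them, such as 17.0% with a −log10 q of at least 5. Of all shared regions, 41.1% were at a boundary, 36.1% inside genes and 22.7% outside. Members ranked lower than shared regions in general, and low peaks are less often at gene boundaries. Among the 5872 other shared regions with a mean percentile of 31.1 to 52.4, the interquartile range of the members, 18.3% were at a boundary, 50.2% inside genes and 31.5% outside. The share at boundaries was 30.4% for the 500 regions ranked lower in WT, and 24.2% and 28.8% for the replicate-number pairing. It was 9.40% for the regions where the deeper pair was higher, so a low share was not found for members alone. A RefSeq promoter window was touched by 38 of 486 members (7.82%, 5.59 to 10.6), by 39.1% of shared regions and by 16.8% of those of the same level. Members were also shorter, with a median width of 688 bp against 947 bp for all shared regions and 749.5 bp at the same level.

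**Figure D5:**
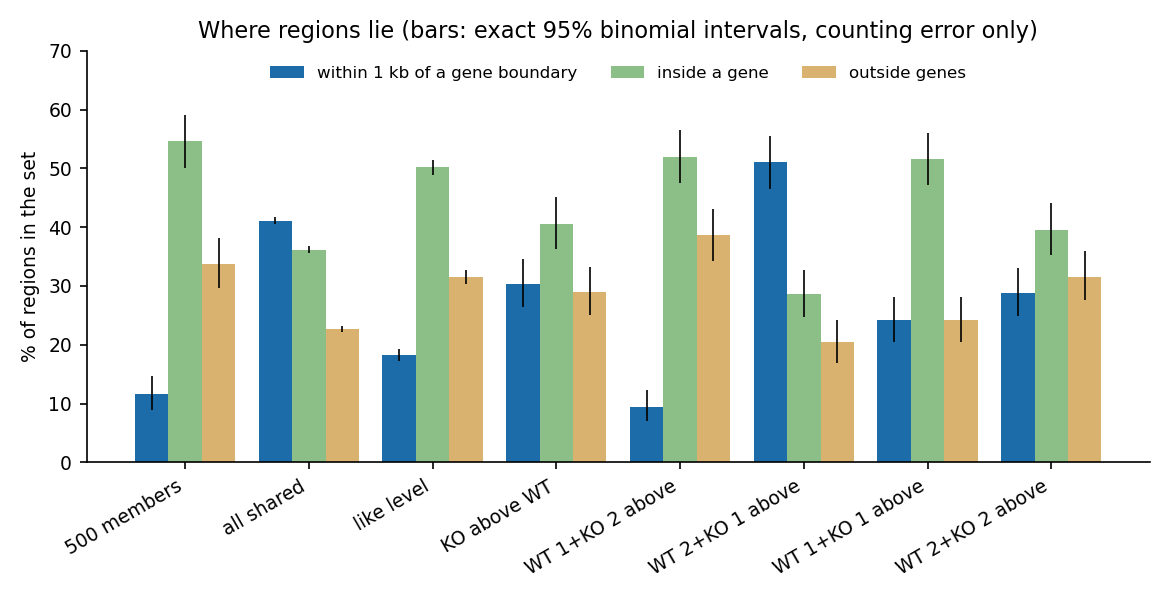
Share of regions (y axis, percent) within 1 kb of a gene boundary, inside a gene and outside genes, for the 500 members, all shared regions, shared regions of like level and the 500 regions of each other pairing and direction, with exact 95% binomial intervals. The intervals cover counting error only. The members' boundary share of 11.6% is under the 18.3% at like level and the 41.1% of all shared regions, and near the 9.40% of the set in which WT 1 and KO 2 were higher.

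The 38 members at promoter windows touched 44 windows. Their median G and C content was 59.7%, against 62.4% in the 13541 windows touched by shared regions and 54.0% in all 31365 windows, and their median number of CpG dinucleotides was 13, against 22 and 7. The letters TGANTCA were in 7 of the 44 windows (15.9%), in 4.40% of the windows of shared regions and in 7.85% of all windows. They are a core common to sites of AP-1 and of NF-E2, an erythroid and megakaryocyte factor. A match to this core alone does not show an NF-E2 site. The GATA letters were in 6.82%, 5.77% and 11.2% of the same sets, and the E-box in 18.2%, 14.9% and 16.3%. CCACCC was in 36.4%, 38.0% and 31.6%, the ETS letters in 15.9%, 26.8% and 23.9%, and CCAAT in 22.7%, 36.7% and 37.3%. The C/EBP letters were in 0 of the 44 windows, and in 7.37% and 10.9% of the others. Windows of neighbouring starts overlap, so the 44 are not independent, and a match describes letters in a window. Of the 44, 31 lay wholly inside a member, so a match can lie outside the member itself. The compared windows were not matched for level or CpG number.

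Gene lists of the tissue's cell types and of red cell functions held few members. Shared regions, assigned to the nearest boundary within 100 kb, were found for 10 of 12 globin genes, 25 of 26 red cell membrane genes and 23 of 30 hepatoblast and hepatocyte markers, but for 4 of 16 macrophage markers. Of 16 lists with 336 genes, 5 had a member, and 7 members named 6 genes. Of all 25929 shared regions so assigned, 480 (1.85%) were members. The erythroid regulators had 1 member among 156 shared regions: a region 60.8 kb from Klf13, which encodes a zinc finger factor of the Krüppel family, at 11.2 and 15.0 in WT, with 1.56 and 0.636 in KO. The red cell membrane list had 1 among 131 regions: a region 3.92 kb from Gypc, which encodes glycophorin C, at 21.9 and 15.4 in WT, with 2.74 and 4.07 in KO. Both had low fold percentiles in all 4 lists, with 82, 45, 27 and 35 summit fragments at Klf13 and 69, 34, 21 and 32 at Gypc in WT 1, WT 2, KO 1 and KO 2. The fragments themselves were not few: the medians of all members were 60.5, 29, 20 and 30 in the same order. No member was assigned to the globin genes (24 regions), heme and iron genes (65), organelle clearance genes (50) or subunits of the BAF complex (56). A region with a WT percentile under 8.48, such as 1 by Nprl3 with 3.53 in WT 2, could not be a member. The counts of 0 for globin, heme and iron, and BAF genes depended on the ranking. By −log10 q, regions by Nprl3, Alad and Slc25a37 were chosen, and with lists of equal length, regions by Hbb-y and Actb. For organelle clearance genes, only a region by Bnip3l was chosen, and only with WT replicate 2 left out. Within 50 kb of the alpha-globin, beta-globin and Hemgn loci there were 22, 14 and 11 shared regions and 0 members. The largest gap there was 7.63 points, at the Hemgn locus, which does not check the knockout, since the KO allele is not given.

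The cell cycle list had 2 members among 68 regions, both inside Cdk6, which encodes a kinase of the G1 phase. The WT percentiles of the first were 68.4 and 62.3, with 25.5 and 43.8 in KO, and the second had 41.7 and 40.7 in WT, with 16.8 and 22.8 in KO. The stem and progenitor list had 1 among 34 regions, 24.3 kb from Cd34, a surface glycoprotein of early blood cells, at 57.4 and 38.7 in WT, with 25.9 and 22.0 in KO. The granulocyte and mast cell list had 2 among 10 regions: the Cebpe region, and 1 that lay 14.5 kb from S100a9, which encodes a subunit of calprotectin. The S100a9 region had 62.9 and 68.9 in WT and 23.8 and 54.4 in KO. Over all 10 regions of that list, both WT were above both KO in 3 and both KO above both WT in 0, where all shared regions had 13.7% and 9.93%. Of the 3, 2 were the members, which have WT above KO by the rule. The other was a second region by Cebpe with a gap of 1.06 points, so nothing is read from this count. The median WT minus KO difference was 2.98 points in that list, against 0.599 over all shared regions. Other lists had like or larger medians: 3.63 in the globin list (4 regions with WT above and 7 with KO above, of 24), 3.42 in the stem and progenitor list (9 and 0 of 34) and 2.85 among erythroid regulators (23 and 8 of 156). Of its 17 genes, 7 had a shared region, so most of the list could not be read. The part of granulocyte number in these values was not tested. Macrophage (5 regions), lymphocyte (13), megakaryocyte (24), hepatocyte (53) and endothelial (26) markers, apoptosis genes (52) and housekeeping genes (28) had 0 members with the reported settings.

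By nearest boundary within 100 kb, 480 members named 457 genes. Cldn10, a claudin gene, had 3 members among its 11 shared regions, all inside the gene. They had 86.3 and 83.0 in WT with 70.4 and 70.3 in KO, then 43.5 and 26.8 in WT and 15.3 and 13.3 in KO, and then 73.9 and 60.3 in WT and 49.4 and 49.6 in KO. The KO libraries were within 3 points of each other at all 3. Another 21 genes had 2 members, from among 3 (as at Snx1) to 12 (as at Cmip) shared regions each. They include Cdk6, Snx1, the imprinted adaptor gene Grb10, and the histone modifier genes Kat6b and Kdm4b. Also among them are Srgn, which encodes the granule proteoglycan serglycin, and Lcp1, which encodes the actin bundler of white blood cells. The examples were chosen after their values were seen. The Srgn regions had 53.3 and 34.8 in WT with 11.1 and 18.5 in KO, and 50.3 and 32.5 in WT with 15.3 and 22.4 in KO. A region inside Sox6, whose factor silences embryonic globin genes, also chosen afterwards, had 84.2 and 73.2 in WT and 33.9 and 56.3 in KO.

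Members were spread over all 19 chromosomes. The share of shared regions that were members was highest on chromosome 14, with 30 of 894 (3.36%, 2.28 to 4.76), and lowest on chromosome 19, with 7 of 989 (0.708%, 0.285 to 1.45). Here too the intervals cover counting error only. The 5 Mb window with the most by count was at 115 to 120 Mb of chromosome 11, with 13 members among 233 shared regions (5.58%). The share was higher at 30 to 35 Mb of that chromosome, with 6 of 78 (7.69%). Another member within 50 kb was found for 48 members, against 23 to 36 regions in the sets of the other pairings and directions. Shared regions near a member had no such difference at the median. Among 163 other shared regions within 5 kb the median WT minus KO difference was −0.602 points, with both WT above both KO in 3.68%, against 0.498 points and 12.1% over all 26355 other shared regions. From 5 to 20 kb it was 1.17 points and 13.6%, and from 20 to 100 kb 0.838 points and 13.1%.

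The boundary of the set was arbitrary. The last members, by Gm867, Bcl9l and Gm51999, had gaps of 8.50, 8.49 and 8.48 points, and the first regions left out, by Proc, Elf1 and Coro6, had gaps of 8.47, 8.47 and 8.42 points. Of the 500 members, 39 were chosen in all 10 other settings of ranking, merging and filtering, 33 were chosen without each library in turn, and 2, by Tmed6 and Sox6, in all of these. Among the 20 largest gaps, 3 were chosen in all 10 settings: Tmed6, Kcnq1 and Rnf17.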

How the data were processed

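Omni-ATAC libraries were made from cells of WT and Hemgn KO fetal livers, per the labels' protocols. MACS2 2.2.7.1, Picard 2.21.4, SAMtools 1.9 and Bowtie2 2.3.5 are named in the submitters' processing notes, with roles, settings and build not given in the sources used here. For each library the authors deposited 1 peak list, not pooled. Names of single peaks carry replicate numbers 3 and 4 where the labels give 1 and 2, in the same order in both genotypes, and the labels were followed. Its fold is the authors' ratio of summit fragments to local background, with 1 added to both, and its −log10 p and −log10 q are the authors' values per peak; the deposited score, which follows the −log10 q, was not used. These are values of single peaks in single lists and were used to rank peaks within a list.

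Members, gene lists, motifs and alternatives were chosen with earlier results of these data known. Percentiles of fold were average ranks within a list. Summit fragments and backgrounds were solved from fold and −log10 p up to a −log10 p of 250 with a tolerance of 0.001. The solving and the choice of regions were also run on simulated data. The simulated lists had no planted difference in length or depth, unlike the real ones. That run therefore checks the code and does not show how well members are chosen in these lists. Depth is otherwise unknown, and the background stands for it only if fragment lengths and settings were alike. Regions were named by the nearest gene boundary of a RefSeq table (GRCm38.p6, 21774 genes); exons and introns were not told apart. Region coordinates are printed as in the lists, but 1-based. Between 12.5% and 16.4% of summits fell in a GRCm38.p6 promoter window, and 0.598% to 0.817% once summits were moved by 5, 20 or 50 kb. Promoter windows of chromosome 18 were not analysed here. Genes named were, by rule, the 20 largest gaps, the 3 largest of each class, members near listed genes, genes with 3 members, promoters of boundary members of largest gap, and the 3 regions on each side of the threshold; others are said to be chosen afterwards. No p-value was computed. Python 3.11.15, numpy 2.4.6, pandas 2.3.3 and scipy 1.17.1 were used.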

Additional observations from a re-analysis of the deposited data

How the results depend on the processing

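The count of shared regions with both WT above both KO was 3680 of 26855 as reported. It was 2292 of 26855 when ranked by −log10 q, and 5736 of 26855 with percentiles among peaks of shared regions. By the within-list percentile of summit fragments it was 722 of 18846, with peaks without solved fragments left out. In the other 7 settings, each with its own number of shared regions, the count stayed within 1.5 times. With 1 library left out the condition is on 3 libraries and so weaker. The count then ran from 4246 of 27035 shared regions, without WT replicate 1, to 18451 of 30031, without WT replicate 2. The absence of KO replicate 2 (11853 of 27385) and of KO replicate 1 (5637 of 29542) also moved it by over 1.5 times. By summit fragments, over the same 18846 shared regions, the genotype pairing gave 1550 regions in both directions and the replicate-number pairing 2037. The members' share at gene boundaries was 17.0% with a −log10 q of at least 5, 15.1% with 1000 members, and 7.0% and 17.2% with boundaries of 500 and 2000 bp; without single libraries it ran from 8.6% to 12.2%. The number of listed genes with a member, 6, was 15 by −log10 q, 14 by summit fragments, 15 with lists of equal length and 14 with percentiles among peaks of shared regions, and from 6 to 16 without single libraries; Cdk6 was named in 14 of these 15 settings with the reported one counted, Cebpe in 13, Cd34 in 12, Klf13 in 10, S100a9 in 9 and Gypc in 8; these gene counts by setting were added after the data were seen. The mean level-adjusted difference in unused libraries, 3.21 points, was 5.16 by summit fragments and 3.17 or more in the other settings. All 4 choices were above 0 in each, but they share the same 4 libraries and are not independent. Of the 500 members, 331 were chosen again by −log10 q, 247 by summit fragments and 125 to 380 without single libraries. The causes of these changes were not tested. No paired analysis was possible because no result comes from a test: the members were chosen on the genotype difference, so none was made.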
